A study of Rattus norvegicus with 16 samples.

Results

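The epidermal growth factor (EGF) receptor, 4 of its ligands and the airway mucin genes were examined in rat lung after exposure to the irritant gas sulfur dioxide (SO2) or to air. The members were 9 genes chosen by name, namely Egfr, Areg, Ereg, Hbegf, Tgfa, Muc1, Muc4, Muc5ac and Agr2. Every probe set whose platform gene symbol was one of them was taken, which gave 8 genes with 9 probe sets, of 10411 named genes and 15866 probe sets that are not controls. Egfr had 2 probe sets, each other gene had 1, and the platform annotation used here named none for Agr2, which was not analysed here. Lung total RNA was run on 16 arrays, 4 in each of 4 groups, which the labels call biological replicates. The groups crossed 2 kinds of rat, spontaneously hypertensive (SH) and Sprague Dawley (SD), with 2 exposures, air and SO2. Inbred SH rats develop high blood pressure, while SD rats are outbred. Dose and duration of SO2, age and time of sampling were not stated in the labels used here.

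The EGF receptor is a tyrosine kinase of epithelial cells. Its ligands are made as membrane proteins and are cut free by metalloproteases before they bind. In the airway, irritants and inflammatory cells are known to release these ligands, and signalling through the receptor is a known route to the making of mucin by goblet cells. Secreted mucins such as Muc5ac form the mucus gel, whereas membrane mucins such as Muc1 and Muc4 stay on the cell surface.

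Values are signals, the linear intensities as deposited, and changes are differences of mean log2(signal + 16) with their standard error (SE). Such differences understate the change of dim probe sets. Adjusted p-values are limma's with Benjamini-Hochberg adjustment over the 11106 probe sets kept by a filter on low means, and 0.05 was the threshold. For the 4 member probe sets under the filter, the p-values come from the same fit without the filter.

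The label of an array gives its strain and exposure, while the replicate numbers used here count the arrays of a group in title order. The arrays had median signals from 250.2 to 281.4. Arrays correlated at 0.921 to 0.972 within groups and at 0.913 to 0.974 between groups. Defining genes of lung tissue, among them Sftpc, Sftpb, Sftpa1, Scgb1a1, Ager and Aqp5, lay above the 97th percentile of signal in the median over the arrays. The array numbered replicate 2 among those labelled SD air went against this label in a strain-dependent gene. Its signal for Terf2ip, a telomere-binding protein, was 693.8, inside the SH air range of 424.8 to 733.2. The remaining SD air arrays lay far above it, at 1982.2 to 2363.4. Without this array the SO2 change in SD rats was 0.044 for Egfr, 0.036 for Ereg and -0.0023 for Muc1, and it is given beside the results for Areg, Hbegf, Tgfa, Muc4, Muc5ac and Clca1. Another array, SD SO2 replicate 3, had the highest Areg signal of all arrays (340.4), the lowest Hbegf signal (47.2) and the highest signal for the mucosal defence gene Dmbt1 (766.9), and its Muc1 signal (5046.6) was the highest of its group. Its part in the SD values was measured by leaving it out, as given beside Areg and Hbegf. Sample titles carry running numbers, 40 to 43 in SH air against 44 and 51 to 53 in SH SO2, so any effect of that order cannot be told apart from the exposure in SH rats. The numbers were 45, 46, 54 and 55 in SD air, all after those of SH air. The same limit therefore holds for SH against SD rats in air.

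Areg and Egfr are shown first by the 250 bases before their start in RefSeq (rat build GRCr8), because Areg had the widest spread of signal among the members and Egfr, its receptor, a narrow one. Areg lies at chr14:17265642-17265891 on the minus strand and Egfr at chr14:95378376-95378625 on the plus strand, and both are printed in the direction of transcription. Capitals mark the motifs searched on both strands: the cyclic AMP response element TGACGTCA, the TATA box TATAAA and the GC box GGGCGG.
Areg: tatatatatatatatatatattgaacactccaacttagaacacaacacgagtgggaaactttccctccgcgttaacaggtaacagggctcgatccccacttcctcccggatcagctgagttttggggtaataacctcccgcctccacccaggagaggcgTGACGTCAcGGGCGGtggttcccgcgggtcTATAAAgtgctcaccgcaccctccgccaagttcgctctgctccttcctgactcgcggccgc
Egfr: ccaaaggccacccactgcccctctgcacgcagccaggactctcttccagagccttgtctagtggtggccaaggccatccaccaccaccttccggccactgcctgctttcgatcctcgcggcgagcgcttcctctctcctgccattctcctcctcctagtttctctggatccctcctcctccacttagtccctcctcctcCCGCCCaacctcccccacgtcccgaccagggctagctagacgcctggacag
The Areg window held all 3 motifs, from 91 to 56 bases before the start, without overlap. The Egfr window held a GC box on the opposite strand and no exact match to the other motifs. Among 33469 windows of the same length the response element occurred in 1.59%, the TATA box in 12.9% and the GC box in 30.5%. Of the 9 members 7 had a window in the table, and Areg was the 1 that held the response element. Areg and Ereg are neighbours on chromosome 14, with 0 other protein-coding genes between them in the RefSeq table. A match is a description of the letters, and the arrays did not measure factor binding.

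The members ranged from bright to near background, and of the 8 genes Areg, Muc4 and Muc5ac were near background on more than 8 of the 16 arrays. A probe set was called near background on an array when its signal lay under the 30th percentile of that array's probe sets, a line that fell between 99.8 and 137.2. Muc1 was near background on 0 of 16 arrays and Egfr on 1. The counts were 2 for Ereg, 3 for Hbegf, 8 for Tgfa, 11 for Areg and 15 for Muc5ac. Muc4 and the second Egfr probe set were near background on all 16.

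As a yardstick, 17 genes not expected in lung, such as the pituitary and pancreatic hormone genes Prl and Gcg, had median percentiles from 1.13 to 48.6, with 12.2 in the middle, and 16 of them were near background on at least 8 arrays. The exception was Ins1, at 48.6. Median percentiles of the members were 98 for Muc1, 37.4 for Egfr, 35 for Hbegf, 34.1 for Ereg, 30 for Tgfa, 26.3 for Areg, 22.5 for Muc5ac, 14.5 for Muc4 and 3.64 for the second Egfr probe set. With the line at the 20th percentile, Areg was near background on 4 arrays, Muc5ac on 5 and Tgfa on 0. With the line at the 40th, Egfr was so on 10, Hbegf on 12, Ereg on 14, Tgfa and Areg on 15 each and Muc5ac on 16.

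**Figure D1:**
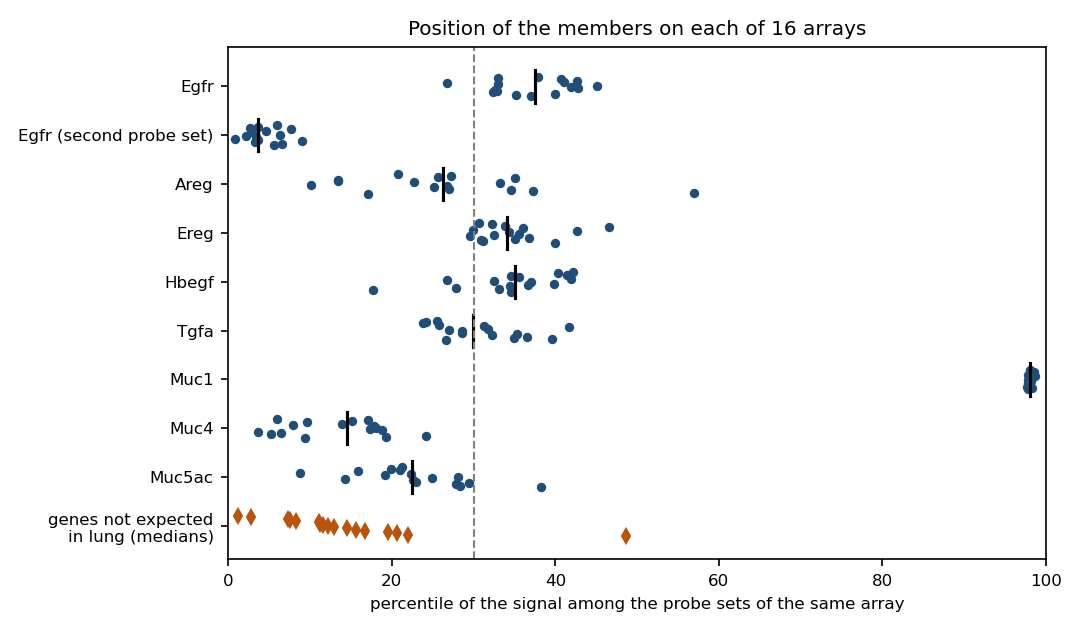
Percentile of each member's signal among the probe sets of the same array (horizontal axis, 0 to 100), with 1 blue point per array and a black bar at the median of 16 arrays; diamonds are the medians of 17 genes not expected in lung, and the dashed line is the 30th percentile. Muc1 sits at 97.7 to 98.6, while Muc4 and the second Egfr probe set stay left of the line on all arrays.

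No member passed the test in any comparison. Limma called 0 of the 5 member probe sets kept by the filter (Egfr, Ereg, Hbegf, Tgfa and Muc1) for SO2 in SH rats, where it called 0% of all probe sets tested, and 0 of 5 for SO2 in SD rats, also with 0% called. The same held for the difference of the SO2 effects (0% called) and for SH against SD rats in air (0% called). It held too in SO2, where 0.81% of probe sets were called. For the averages over both strains and over both exposures 0 members were called, against 0% and 1.53% of all probe sets.

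At an unadjusted p under 0.05, the fit without the filter put the number of member probe sets, of 9, at 1 for SO2 in SH rats, 2 for SO2 in SD rats, 1 for the difference, 0 for the strains in air, 2 for the strains in SO2, 1 for SO2 averaged over strains and 0 for the strains averaged over exposures. The share of all 15866 probe sets past that line was 5%, 7.19%, 4.7%, 6.02%, 8.94%, 7.7% and 9.96% in the same order. Adjusted p of the members ran from 0.949 to 0.995 for SO2 in SH rats and from 0.652 to 0.99 for SO2 in SD rats. In lung tissue, fewer cells of a type and less RNA per cell cannot be told apart.

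**Figure D2:**
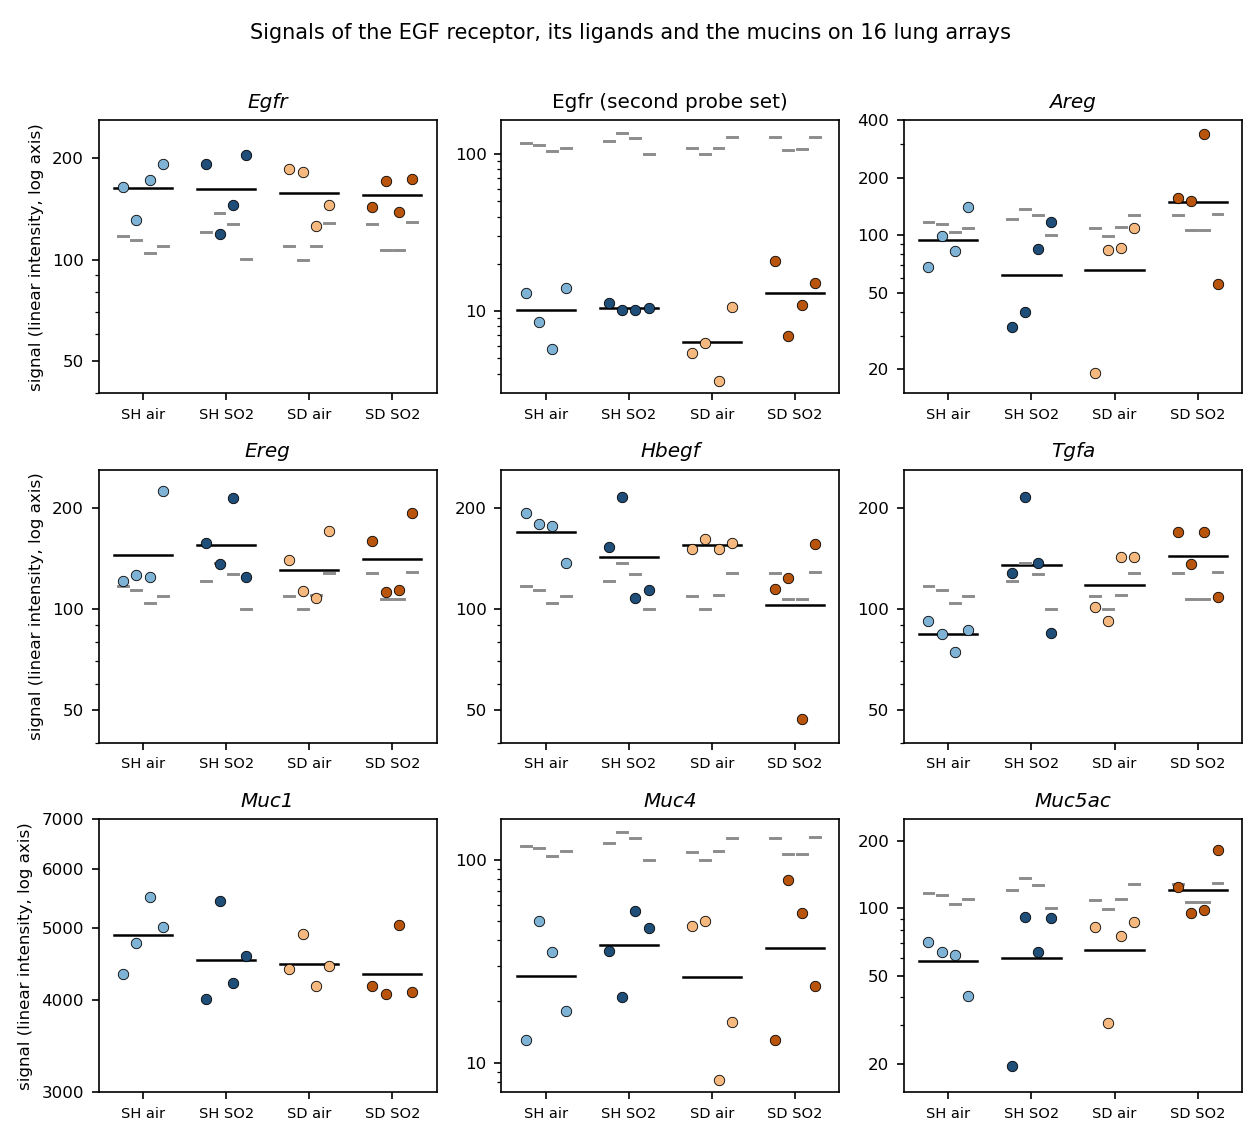
Signal of each member probe set (vertical axis, linear intensity on a log scale that differs between panels) on the 4 arrays of each group, ordered by replicate number. Points are arrays, black bars are group means taken on the log2(signal + 16) scale, and grey ticks mark the 30th percentile of each array (outside the Muc1 panel, whose signals lie far above it); Muc5ac in SD SO2 lies above all SD air arrays, and Tgfa is lowest in SH air.

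The receptor gene showed no change past the threshold. Egfr measured 164.6, 131.5, 172.2 and 192.4 in SH air and 192.1, 118.8, 145.5 and 204.5 in SH SO2. In SD rats it measured 186, 182.2, 125.8 and 145.4 in air and 143, 170.8, 138.9 and 173.2 in SO2. All 4 groups overlapped, and the group means lay between 156.5 and 165.2. The SO2 change was -0.016 (SE 0.209) in SH rats and -0.019 (SE 0.209) in SD rats. The 95% intervals of the fit ran from -0.46 to 0.42 in both strains, so a change of about 0.5 or more in the measured log2 value lay outside them. Since the signals, 118.8 to 204.5, lay not far above the background line, these intervals do not bound the change of the transcript. The second Egfr probe set measured 3.6 to 20.8 over the 16 arrays, too dim to be read as a level.

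Areg encodes amphiregulin, a ligand induced by injury and by immune cells. It measured 68.8, 99.1, 83.1 and 140.4 in SH air and 33.1, 39.7, 84.6 and 118.2 in SH SO2. In SD rats it measured 19.1, 84.3, 86.2 and 109.8 in air and 157.2, 150.5, 340.4 and 55.8 in SO2. Of the SD SO2 arrays 3 lay above all other SD arrays and the fourth, replicate 4, lay among those in air, so the groups overlapped; SH SO2 had 2 arrays under every SH air array.

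The Areg change with SO2 was 1.01 (SE 0.47, unadjusted p = 0.0459, limma adjusted p = 0.682) in SD rats and -0.51 (SE 0.47, adjusted p = 0.964) in SH rats. The difference of these effects was -1.52 (SE 0.664, unadjusted p = 0.0348, limma adjusted p = 0.999). It did not pass, and Areg was near background on 11 arrays. Single arrays carried much of the SD value: it was 0.60 without SD air replicate 1, 0.64 without SD SO2 replicate 3 and 1.10 without the array labelled SD air replicate 2. In SH rats the value was -0.29 without SH SO2 replicate 1, -0.77 without SH SO2 replicate 4 and -1.45 with the title number as a covariate. That number runs with the exposure in SH rats, so the last value cannot separate the order from SO2. In SO2, Areg was lower in SH than in SD rats by -1.08 (SE 0.47, unadjusted p = 0.0335, limma adjusted p = 0.482), or by -0.71 without SD SO2 replicate 3.

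Ereg encodes epiregulin. Its signals were 121, 126.8, 124.8 and 225.1 in SH air and 157.7, 136.6, 214 and 124.4 in SH SO2. SD rats gave 139.9, 113.6, 108 and 171.2 in air and 159.7, 112.4, 113.9 and 193.5 in SO2. All 4 groups overlapped, and SH air replicate 4 stood apart from the other SH air arrays. The SO2 change was 0.092 (SE 0.253) in SH rats and 0.097 (SE 0.253) in SD rats, with limma adjusted p of 0.979 and 0.947.

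Hbegf encodes heparin-binding EGF-like growth factor, which also binds the receptor Erbb4. It measured 192.7, 179, 177.2 and 137.1 in SH air and 153.6, 216.4, 108.3 and 114.3 in SH SO2. In SD rats its values in air were close together, at 150.9, 161.9, 150.9 and 157, while those in SO2 were 114.9, 124, 47.2 and 156. Of the SD SO2 arrays 3 lay under every SD air array and 1 among them. Among the ligands in the member list, Hbegf alone had a lower mean in SO2 in both strains, by -0.23 (SE 0.278) in SH rats and by -0.53 (SE 0.278, unadjusted p = 0.0731, limma adjusted p = 0.652) in SD rats. The SD value was -0.22 without SD SO2 replicate 3, which had the lowest signal, and -0.51 without the array labelled SD air replicate 2. In SH rats it was -0.41 without SH SO2 replicate 2, -0.11 without replicate 3 and -0.13 without replicate 4.

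Tgfa encodes transforming growth factor alpha. Its signals in SH air were the tightest and lowest, at 92.5, 84.3, 74.7 and 86.9, and all 4 were near background. SH SO2 gave 128.2, 215.6, 137.6 and 85.2, of which 3 lay above every SH air array. SD rats had 101.7, 92.1, 142.6 and 142.7 in air and 169.6, 136.2, 169.5 and 108.7 in SO2. The change with SO2 was 0.59 (SE 0.263, unadjusted p = 0.0371, limma adjusted p = 0.949) in SH rats and 0.26 (SE 0.263, adjusted p = 0.837) in SD rats.

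Averaged over both strains the Tgfa change was 0.42 (SE 0.186, unadjusted p = 0.0344, limma adjusted p = 0.55). The difference between the strains' effects was 0.33 (SE 0.372, adjusted p = 0.994), so no strain difference was shown. In SH rats the value was 0.38 without SH SO2 replicate 2, whose Tgfa signal was the highest, and 0.78 without SH SO2 replicate 4. SH SO2 replicate 2 also had the highest 10th percentile of signal of all arrays, 26.8, against 17 to 25.5 on the others; with this percentile as a covariate, an alternative added after seeing the data, the SH value was 0.42. In SD rats it was 0.15 without the array labelled SD air replicate 2.

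Summed signals of the macrophage markers Cd68 and Gpnmb, 2 of 5 listed and both far above background, were 6039 to 8252 in SH air and 4398 to 5782 in SH SO2, without overlap. Most of the sum was Gpnmb, with a median signal of 4203 against 1425 for Cd68. Of the 2 genes 0 passed the adjusted test there. Both had an unadjusted p under 0.05, as did 4.84% of all probe sets kept by the filter. Of all single probe sets 1.68% were lower without overlap in that comparison. Summed signals of the neutrophil markers S100a8, S100a9 and Cxcr2, 3 of 5 listed, were 1210 to 2418 and 1735 to 2348, with Cxcr2 near background on 7 of 16 arrays. In SD rats the macrophage sums were 3012 to 7554 in air and 4545 to 5617 in SO2, and the neutrophil sums 827.3 to 2416 and 604.8 to 1716. The part of these cells in the Tgfa and Areg values was not tested.

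**Figure D3:**
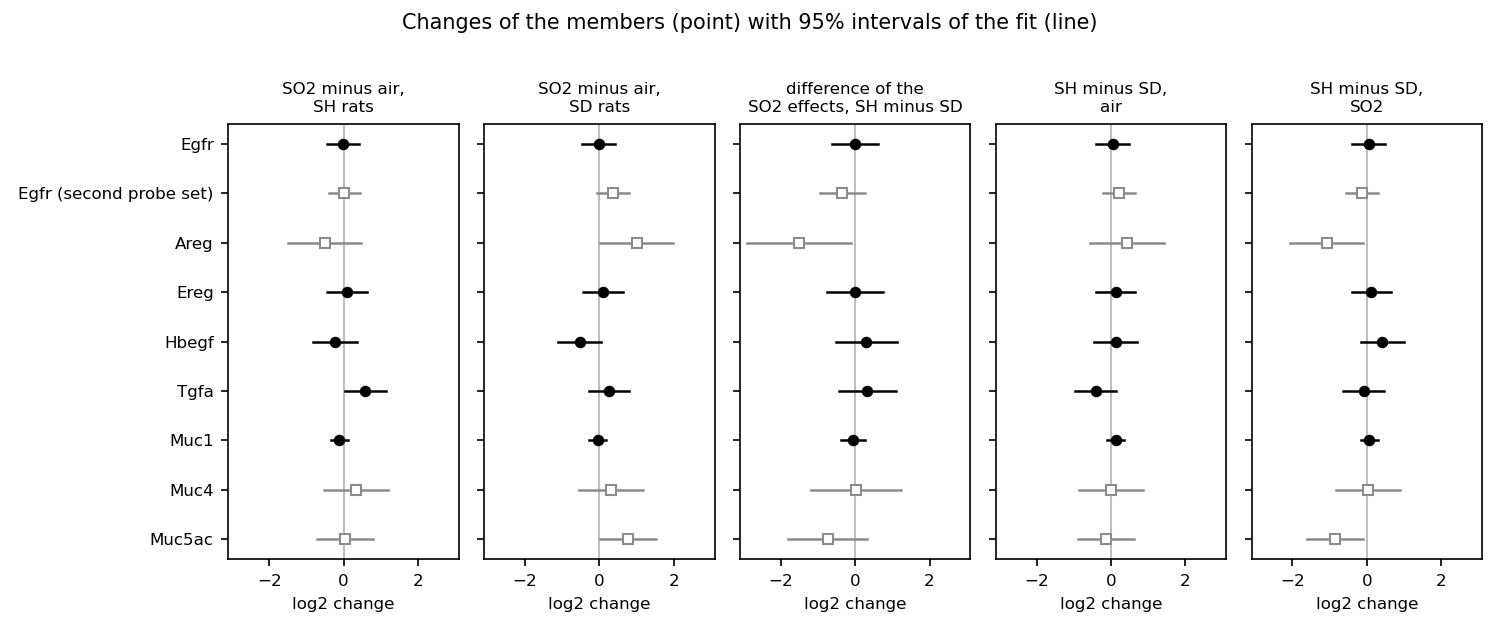
Change of each member on the log2(signal + 16) scale (horizontal axis) in 5 comparisons (panels), with the 95% interval of the limma fit as a line. Filled circles are probe sets kept by the filter, open grey squares those under it; intervals are narrowest for Muc1 and widest for Areg, and 0 members passed the adjusted threshold.

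Muc1, a membrane mucin of the alveolar and airway epithelium, was the member measured best. It gave 4330.8, 4769.6, 5496 and 5013.2 in SH air and 4004.8, 5426.5, 4210.5 and 4581.6 in SH SO2. In SD rats it gave 4402.2, 4898.7, 4169.3 and 4444.8 in air and 4176.3, 4077.7, 5046.6 and 4090.8 in SO2. The groups overlapped throughout, and the highest signal was 1.37 times the lowest. Its SO2 change was -0.11 (SE 0.11, limma adjusted p = 0.96) in SH rats, with a 95% interval from -0.34 to 0.12, and -0.046 (SE 0.11, adjusted p = 0.944) in SD rats, from -0.28 to 0.18. The strains differed by 0.13 (SE 0.11, adjusted p = 0.912) in air and by 0.063 (SE 0.11, adjusted p = 0.908) in SO2.

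The spread of Muc1 within groups, an SD of 0.148 on the log2 scale, was smaller than that of all but 7.51% of probe sets. That of Areg, 0.742, was larger than that of 93.5% of them. Muc4, a membrane mucin that binds Erbb2, ranged from 8.2 to 79.3 over the 16 arrays and was near background on all, with SO2 changes of 0.34 (SE 0.412) in SH rats and 0.32 (SE 0.412) in SD rats. The SD value was 0.53 without the array labelled SD air replicate 2 and 0.04 to 0.61 over all single arrays left out, and the SH value 0.15 to 0.55, so neither is a stable size. The group ranges of Muc4 overlapped in every comparison.

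Muc5ac, the main gel-forming mucin of airway goblet cells, was dim, but its SD groups did not overlap. It measured 82.4, 30.8, 74.8 and 86.7 in SD air and 124, 95.3, 98.5 and 182 in SD SO2. In SH rats it measured 70.6, 63.7, 62.1 and 40.4 in air and 19.6, 91.6, 64 and 90.8 in SO2. All 4 SD SO2 arrays were above all 4 SD air arrays, a split found in the same direction in 2.04% of all probe sets, and above all 4 SH SO2 arrays, which 2.32% of probe sets showed. Of the 9 member probe sets, 1 was therefore higher without overlap for SO2 in SD rats and 0 were lower (1.3% of all probe sets). For SO2 in SH rats 0 were higher or lower (2.17% and 1.68% of all). Between SH and SD rats 0 were higher or lower in air (1.78% and 1.98% of all), and in SO2 0 were higher (2.38% of all) and 1 lower.

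The Muc5ac change with SO2 was 0.76 (SE 0.358, unadjusted p = 0.0479, limma adjusted p = 0.684) in SD rats and 0.027 (SE 0.358, adjusted p = 0.994) in SH rats. The difference of these effects was -0.73 (SE 0.507, unadjusted p = 0.165, limma adjusted p = 0.999), so a strain difference in the response was not shown. Without SH SO2 replicate 1 the SH change was 0.39 and the difference -0.37, and the difference was -0.47 when the array labelled SD air replicate 2 was left out. In SO2, SH rats were lower than SD rats by -0.86 (SE 0.358, unadjusted p = 0.0276, limma adjusted p = 0.451), or by -0.50 without SH SO2 replicate 1, which had the lowest signal. The SD value was 0.50 without the array labelled SD air replicate 2, whose signal of 30.8 was the lowest of its group, and 0.58 without SD SO2 replicate 4. Of the 16 arrays 15 were near background, SD SO2 replicate 4 being the other, so the size of the change is uncertain.

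**Figure D4:**
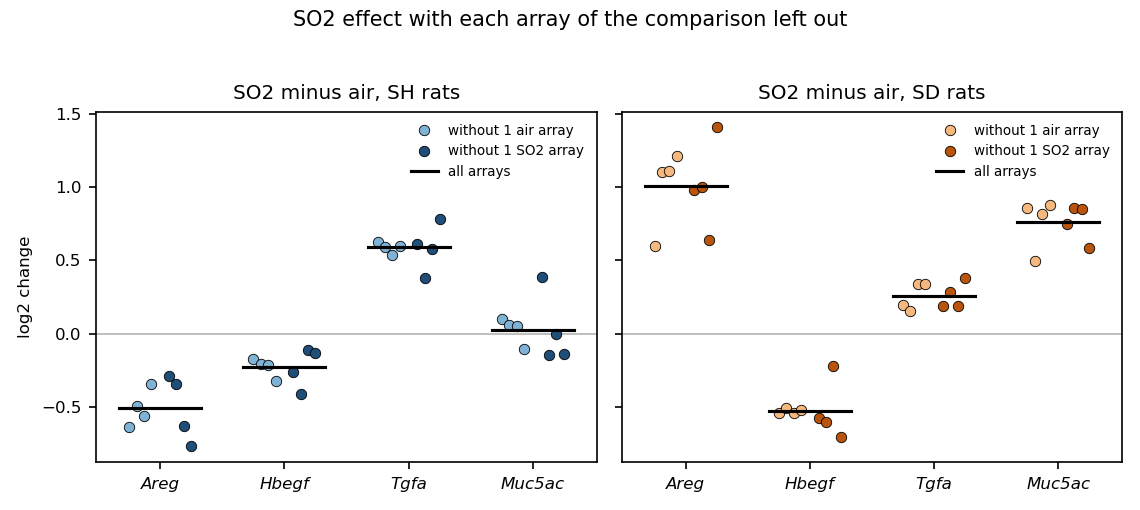
Change with SO2 on the log2(signal + 16) scale (vertical axis) of 4 members in SH rats (left) and SD rats (right); the black bar is the value over all arrays and each point the value without 1 air array or 1 SO2 array of that strain. The SD value of Areg falls from 1.01 to 0.60 without SD air replicate 1, and that of Hbegf moves from -0.53 to -0.22 without SD SO2 replicate 3.

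Other genes of mucous cells were described with Muc5ac from a list of 29, of which 18 had a probe set and 10 passed the filter; the list also holds genes expressed in other lung epithelium, such as Foxa2, Nkx2-1 and Pdia3. For SO2 in SH or SD rats 0 of the 10 passed the adjusted test, and 1 gene in each strain had an unadjusted p under 0.05 (Pdia3, a folding enzyme, in SH rats and Clca1 in SD rats), a line passed by 4.84% and 8.24% of all probe sets kept by the filter. The median change of the 10 was 0.158 in SD rats and -0.0475 in SH rats, beside 0.00811 and 0.0132 over all genes tested. Clca1, a secreted product of goblet cells, had the smallest p of the list. It measured 215.2, 125, 492.4 and 331.2 in SD air and 1190.1, 1897, 382.3 and 491.5 in SD SO2. In SH rats it measured 159.2, 118.2, 50.6 and 330 in air and 309.6, 292.2, 95.5 and 200.9 in SO2.

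SD SO2 replicates 1 and 2 had the highest Clca1 signals of all 16 arrays, while replicates 3 and 4 lay within the range of SD air. The change was 1.59 (SE 0.514, unadjusted p = 0.00598, limma adjusted p = 0.461) in SD rats and 0.54 (SE 0.514, adjusted p = 0.96) in SH rats, and the difference of the effects was -1.04 (adjusted p = 0.981). In SO2, SH rats were lower by -1.90 (SE 0.514, limma adjusted p = 0.114). The SD change was 1.18 without SD SO2 replicate 2 and 1.26 without the array labelled SD air replicate 2. In SH rats the change was 0.14 without SH air replicate 3 and 0.93 without SH air replicate 4, and the difference was -0.64 without SD SO2 replicate 2 and -0.65 without SH air replicate 4. Muc2, an intestinal mucin, and Fcgbp, a mucus-associated protein, had mean signals of 75.08 to 115.5 and 98.82 to 106.7 in the 4 groups, and neither passed the filter. Dmbt1, a mucosal defence protein, was at 766.9 on SD SO2 replicate 3 and at 163.5 to 209.1 on the other 3.

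**Figure D5:**
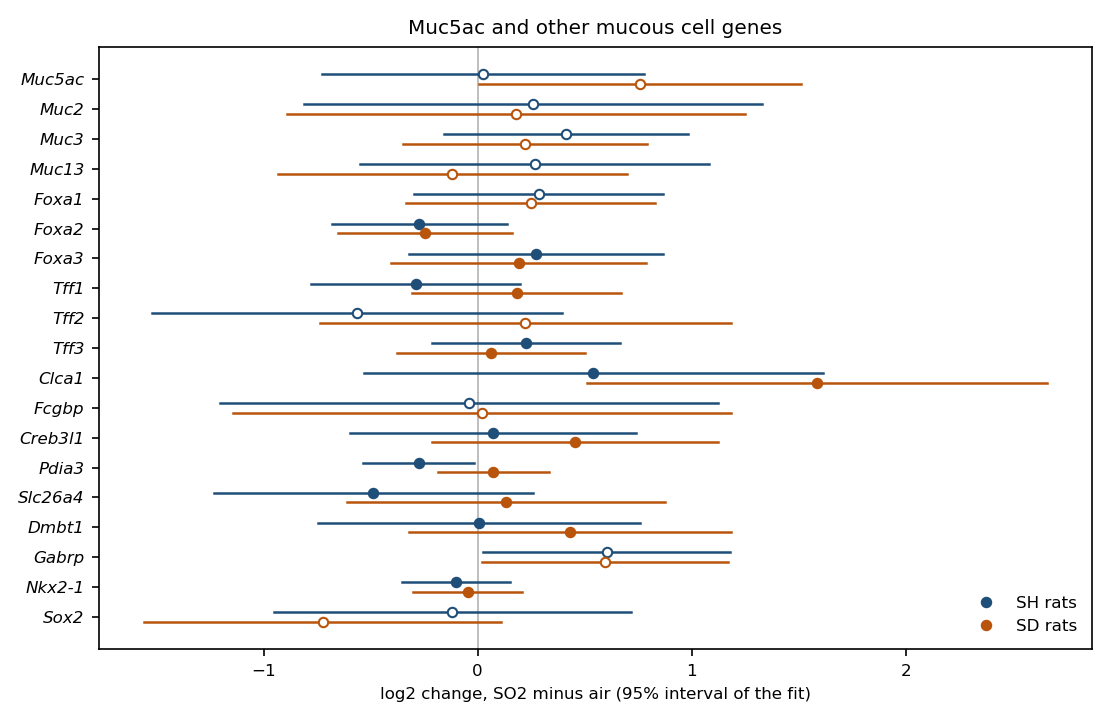
Change with SO2 on the log2(signal + 16) scale (horizontal axis, with the 95% interval of the fit) of Muc5ac and 18 other genes of the mucous cell list in SH rats (blue) and SD rats (orange); open circles are genes under the filter. Clca1 in SD rats lies farthest to the right, at 1.59, and 0 genes passed the adjusted threshold.

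Markers of other airway cells were set beside these values. Club cell genes, of which Scgb1a1, Cyp2f4 and Reg3g were on the array out of 6 listed, had sums of 25320 to 30040 for SD air, of 26230 to 38170 for SD SO2, and of 23620 to 25380 and 24750 to 27630 in SH rats. Scgb1a1 made up nearly all of these sums, with a median signal of 25380 against 943.2 for Cyp2f4 and 103.8 for Reg3g. Ciliated cell genes (Foxj1, Tekt1 and Rsph1 of 6 listed) had sums of 969.7 to 1136 for SD air, of 880.7 to 1660 for SD SO2, and of 951.3 to 1071 and 751.5 to 1292 in SH rats. Of these genes Reg3g was near background on 10 of 16 arrays, and the ranges of the sums overlapped between air and SO2 in both strains. Single genes moved more than the sums: Tekt1, a protein of cilia, measured 415.2, 630.9, 657.6 and 737.7 in SD SO2 in ascending order, against 379.7 to 419.5 in SD air (0.56, SE 0.169, unadjusted p = 0.00376, limma adjusted p = 0.428). Of the SD SO2 arrays 3 lay above every SD air array for Tekt1. The SD changes of Rsph1 and Foxj1 were 0.49 (limma adjusted p = 0.66) and -0.14 (limma adjusted p = 0.905). The part of club and ciliated cells in the Muc5ac and Clca1 values was not tested.

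Cyp2f4, a cytochrome P450 of club cells, passed the test between the strains in SO2, as did 0.81% of all probe sets tested. Its mean signals were 651.4 ± 126 in SH SO2 and 1573 ± 168 in SD SO2 (SD, n = 4; -1.26, SE 0.165, limma adjusted p = 0.000282). In air the means were 791 ± 86.4 in SH and 1457 ± 363 in SD rats (-0.84, limma adjusted p = 0.0979), a value that became -1.01 and passed (adjusted p = 0.00144) without the array labelled SD air replicate 2.

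Genes that add sugars to mucins numbered 26 in the list, 16 on the array and 13 tested, and 0 passed for SO2 in either strain. At an unadjusted p under 0.05 there were also 0 in each, beside 4.84% and 8.24% of all probe sets kept by the filter. In SH rats 10 of the 13 had values below 0 (median -0.0708), and in SD rats 6 did (median 0.0571). Over all genes tested the medians were 0.0132 and 0.00811. C1galt1, the core 1 O-glycan synthase, was at -0.39 (SE 0.192, limma adjusted p = 0.949) in SH rats, and Galnt1, which adds the first sugar, at -0.26 (SE 0.142, adjusted p = 0.949).

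Across the rest of the EGF receptor pathway, 0 genes passed the test for SO2. Among the other receptors, Erbb2, the shared partner of the family, had group means of 254.5 to 294.8, and Erbb3 had 277.9 to 324.9; Erbb4 was near background on all 16 arrays, at 6.3 to 23.3 in SH air and 26.5 to 119.7 in SH SO2 (limma adjusted p = 0.893). The other ligands on the array were Btc and Nrg1, which passed the filter, and Egf and Nrg2, which were near background on all 16. In the fit without the filter neither of these dim ligands passed. Egf measured 20.7 to 52.1 in SH air and 59.1 to 85.2 in SH SO2 (limma adjusted p = 0.955), and its SD ranges overlapped. Of all probe sets 2.17% were higher without overlap for SO2 in SH rats. Nrg2 was higher in SH than in SD rats averaged over exposures, by 0.73 (SE 0.215, limma adjusted p = 0.149). Btc (betacellulin) changed by -0.41 (SE 0.328) in SH rats and -0.16 in SD rats with SO2, and Nrg1 (neuregulin 1) by 0.24 and 0.51 (SE 0.277), all short of the threshold.

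Of 9 genes for ligand shedding and its control 7 were tested, and 0 passed in any comparison. They include Adam17 and Adam10, the proteases that cut the ligands free. The smallest p belonged to Timp3, an inhibitor of Adam17, in SH against SD rats in SO2, with means of 13460 ± 944 and 9757 ± 2100 (SD, n = 4; 0.48, SE 0.146, limma adjusted p = 0.153).

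Of 26 adaptor and signalling genes 18 were tested, with 0 passing for SO2 in either strain. In SH against SD rats in SO2 1 passed, beside 0.81% of all probe sets tested. That gene was Stat3, a transcription factor activated by cytokine receptors and by the EGF receptor. It also passed for the strains averaged over exposures (-0.62, SE 0.126, limma adjusted p = 0.011), where 1.53% of all were called. Stat3 measured 1531.3, 862.6, 895 and 1701 in SH SO2 and 2500.8, 2994.8, 2549.8 and 2489.1 in SD SO2, so that the groups lay apart (-1.13, SE 0.178, limma adjusted p = 0.00235). In air it measured 1777.2 to 1877.5 in SH and 1554.4 to 2247.3 in SD rats, and the ranges overlapped (-0.12, adjusted p = 0.957). Its SO2 change was -0.61 (SE 0.178, adjusted p = 0.789) in SH and 0.40 (SE 0.178, adjusted p = 0.576) in SD rats. The difference of the SO2 effects was -1.01 (SE 0.252, unadjusted p = 0.000733, limma adjusted p = 0.959), which did not pass.

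Feedback inhibitors of the receptor showed 0 passing of 11 tested for SO2 in each strain, with 1 at an unadjusted p under 0.05 in SH rats and 2 in SD rats, beside 4.84% and 8.24% of all probe sets kept by the filter. In SD rats 9 of the 11 lay below 0, with a median of -0.196 beside 0.00811 over all genes. Lrig1, a membrane protein that marks the receptor for breakdown, had 450.9 ± 83.9 in SD SO2 and 645 ± 101 in SD air (SD, n = 4; -0.51, SE 0.224, limma adjusted p = 0.575). Dusp6, a phosphatase of the ERK kinases and itself induced by them, went the other way, with 2786 ± 154 against 2187 ± 559 (SD, n = 4; 0.38, SE 0.137, limma adjusted p = 0.476). In SH rats 6 of 11 were above 0, and Errfi1, a direct inhibitor of the receptor kinase, was at -0.46 (SE 0.291, limma adjusted p = 0.949).

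Early response genes, which growth factors and many other signals induce, had 14 of 19 tested and 0 passing for SO2 in each strain. At an unadjusted p under 0.05 there were 2 in each, beside the same 4.84% and 8.24% of all. For the difference of the SO2 effects there were 4 of 14, and for SH against SD rats in SO2 there were 3. The shares of all probe sets without the filter were 4.7% and 8.94% there, and 0 of the 14 passed in either. The median SO2 change of the 14 was 0.124 in SH rats, where 9 lay above 0, and -0.0872 in SD rats, where 4 did. Over all genes tested the medians were 0.0132 and 0.00811. Cxcl2, a neutrophil chemokine, measured 150.2 to 412.9 in SH SO2 and 81.9 to 131.3 in SH air (0.99, SE 0.267, limma adjusted p = 0.585), and 136.2 to 158.9 against 124.3 to 216.9 in SD rats (-0.06, adjusted p = 0.968). Cxcl1, a related chemokine, ranged over 311.2 to 508.9 in SD SO2 against 506.2 to 921.3 in SD air (-0.85, SE 0.271, limma adjusted p = 0.44), or -1.05 without the array labelled SD air replicate 2. Between the strains, the SO2 effects gave a difference of 1.05 (SE 0.377, adjusted p = 0.981) for Cxcl2 and 1.09 (SE 0.383, adjusted p = 0.981) for Cxcl1.

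For the 5 members above the filter, the genes most alike over the 16 arrays were found by Pearson's r of log2 values among 8059 others, as a description with no test, since the highest of so many values is high by selection. Rac1 was nearest to Egfr (0.793), Mief2 to Ereg (0.812), Itpk1 to Hbegf (0.749), Zbtb2 to Tgfa (0.808) and Atp6v0e1 to Muc1 (0.815). The next were 6430548M08Rikl and Ttc3 for Egfr, Ap3b1 and Samsn1 for Ereg, Fam89a and Zg16 for Hbegf, Man2a2 and Inpp5b for Tgfa, and Rpl27 and Lgals8 for Muc1. With each group's mean removed the 15 values lay between 0.662 and 0.815. No member was among the 3 nearest genes of another.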

How the data were processed

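Lung total RNA of 16 rats' samples was hybridised to 1 Affymetrix-type array each; per the labels, each group had 4 biological replicates. The deposited table holds 1 linear intensity per probe set and array, which the authors made with GCOS, per the submitters' processing notes; no label used here states its version or algorithm, and detection calls were not used here. Trimmed means (2% off each end) were 499.419 to 499.884, so the deposited scaling was kept. Of 15923 probe sets 57 were controls. Of the others 12783 had 1 gene symbol, 312 several and 2771 none; 12748 matched RefSeq (GRCr8) and 0 symbols changed.

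Values were log2(intensity + 16). The 30% of probe sets with the lowest means were left out. Tests used limma 3.58.1 in R 4.3.3 with 4 group means, 12 residual degrees of freedom and eBayes with a trend, checked on simulated data: at log2 changes of 1 and 2 in 1 group, 79% and 96% of 100 changed probe sets each were recovered for SO2 in SH rats, with 9 false calls among 11106 tested. The simulated noise was independent between probe sets, and the changed probe sets were drawn from all those kept by the filter. These shares therefore do not say how often a change of a dim member would be called. The number of arrays limits the precision. Named context genes are those called or of the 3 smallest p in a list. The members and lists were chosen with earlier results of these data known. Same-numbered arrays of different groups correlated above 0.1 in 4 of 24 pairs (-0.433 to 0.151). Since the replicate numbers were given here in title order, these values cannot show whether the rats were paired or blocked. Alternatives were offsets of 1 and 64, quantile normalization, median centring, no filter, a 50% filter, the replicate block, no trend, a robust prior, array weights, only the groups compared, title number as covariate, each array left out and, added after seeing the data, as covariates the actin 3' to 5' ratio and each array's 10th percentile. Figures used matplotlib 3.10.9 in Python 3.11.15.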

Additional observations from a re-analysis of the deposited data

Results flagged for a closer look

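Within groups of 4, an array was singled out when its gap to the nearest of the others took more than 0.829 of the group's whole range of log2 values. This was tested in 36 groups of member values, of which chance gives about 1.8, and 3 were singled out. Ereg measured 225.1 on SH air replicate 4, against 121 to 126.8 on the other SH air arrays. Muc1 measured 5046.6 on SD SO2 replicate 3, against 4077.7 to 4176.3 on the others. Muc5ac measured 30.8 on the array labelled SD air replicate 2, against 74.8 to 86.7 on the others, and this is also the array whose Terf2ip signal went against its label.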

How the results depend on the processing

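With 0 member probe sets called as the value in each of the 7 comparisons, the count was 0 in all 29 or 30 alternatives of each. Calls over all probe sets moved more: 90 for SH against SD rats in SO2 (50 to 123 over the alternatives), 170 for the strains averaged over exposures (56 to 274) and 0 for the strains in air (up to 86, without the array labelled SD air replicate 2). For SO2 they were 0 to 1 in SH rats, 0 to 3 in SD rats, 0 to 11 averaged over strains and 0 for the difference. Of 1863 alternative values of the members' log2 changes, 116 had another sign than the main value, all of them uncalled on both sides. The replicate block, which rests on numbers given here in title order, left every member's call as it was. With it the number of members called was 0 in each comparison. With the title number, which runs with the exposure in SH rats, as a covariate, Areg in SH rats was at -1.45 and Muc5ac at -0.73. With the 10th percentile of signal as a covariate they were at -0.22 and -0.15. In SD rats with SO2, Areg was at 1.12 and Muc5ac at 0.69 with that covariate, and at 1.08 and 0.94 with the actin ratio. The actin ratio averaged 1.78 ± 0.402, 2.14 ± 0.77, 1.53 ± 0.159 and 1.92 ± 0.687 (SD, n = 4) in SH air, SH SO2, SD air and SD SO2. The cause of these shifts was not tested. Signals near background limit what can be said of Areg, Muc4, Muc5ac and Tgfa. Egfr, Hbegf and Ereg lay not far above the line, at median percentiles of 37.4, 35 and 34.1, so the limit touches them too.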
